A study of Homo sapiens with 20 samples.

Results

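CXCL14 (ENSG00000145824), a secreted CXC chemokine, was followed across 20 RNA-seq libraries of U2-OS cells, a human osteosarcoma line. It was selected on its own values, as the gene with the largest fall between untreated cells and cells irradiated 7 days earlier, and is 1 gene of the 20314 in the count table and of the 14992 that passed the filter on low counts. Its values at 7 days are therefore given as a description and without a test. The libraries fall into 4 groups of 5. Untreated cells were compared with cells that received 20 Gy of ionising radiation (IR) and were harvested 1.5 h later, with cells harvested 7 days later, and with non-irradiated cells carrying an shRNA against NFKBIA, the gene of the NF-κB inhibitor IκBα. The study set the first phase of NF-κB activity, hours post-IR, beside the second phase in senescent cells and beside loss of IκBα without DNA damage.

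CXCL14 is a small secreted protein without the ELR motif that marks the neutrophil-attracting CXC chemokines. Healthy epithelia such as skin make it constitutively, it attracts monocytes and immature dendritic cells, and many carcinomas lose it. Promoter methylation and epidermal growth factor signalling have both been linked to low CXCL14 in tumours, and its receptor is still debated, with CXCR4 and GPR85 among the candidates.

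All groups were grown in the same medium with serum, and irradiation was timed so that all cells were collected together. The shRNA came from lentiviral vectors with puromycin selection of clones, and the inducible vector needs doxycycline. No library of the 20 is labelled as carrying a scrambled shRNA, so selection, vector and doxycycline cannot be told apart from the loss of NFKBIA. The study describes the samples as quintuplicates and a legend calls the untreated and irradiated ones biological replicates. How the cultures were kept apart is not given in the sources used here, and p-values measure the spread between these libraries.

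Reads counted on genes numbered 22535659 to 40390961 in untreated libraries, 34345867 to 39546228 at 1.5 h, 27547705 to 34307447 at 7 days and 26693224 to 33461262 with the knockdown. Untreated replicate 5 had the fewest reads and stood apart from its group. Its counts differed from those of the other 4 untreated libraries by a chi-square of 101.8 to 165.7 per degree of freedom, where the lowest value for any of the 40 pairs within groups was 1.749, so each library was counted on its own. Library names in the labels carry a lane code. Untreated replicates 1 to 4 are in lane 2. Lane 3 holds untreated replicate 5 with 1.5 h replicates 1 to 3, lane 4 the other 1.5 h libraries with 7 days replicates 1 and 2, lane 5 the other 7 days libraries with knockdown replicate 1, and lane 6 the other knockdowns. The knockdown shares no lane with untreated or 1.5 h libraries.

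NFKBIA was read first as a check of the labels. It stood at 28.6, 23.5, 27.5, 35.0 and 42.0 CPM (counts scaled to library size) in untreated replicates 1 to 5, and at 13.0, 11.2, 12.1, 12.0 and 12.4 CPM with the knockdown. Every knockdown library lay below every untreated library, and NFKBIA fell by 1.36 on the log2 scale (SE 0.109). At 1.5 h NFKBIA, itself an NF-κB target, rose by 1.40 (SE 0.104) to 82.1 ± 5.27 CPM (SD, n = 5). At 7 days it was at 30.8 ± 1.59 CPM (log2 fold change −0.02, SE 0.104). It was called lower there with lane as a factor (−0.54), a value that rests on untreated replicate 5, where untreated NFKBIA was highest. CDKN1A, which encodes the cell cycle inhibitor p21, rose by 1.61 (SE 0.0525) at 1.5 h and by 1.86 (SE 0.0529) at 7 days.

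Among 9 osteoblast markers, 6 passed the filter. SP7 and IBSP had at most 3 counts in any library and DLX5 had 0, while COL1A1 was the highest per length, so the line showed part of the osteoblast set. The summed level of these markers averaged 2130 CPM in untreated libraries, 1830 at 1.5 h, 1690 at 7 days and 741 with the knockdown. COL1A1 alone averaged 1974, 1716, 1467 and 616.7 CPM in these groups, so it made up most of each sum. Epithelial markers, from the tissue type in which CXCL14 is best known, were all 8 tested, with KRT18 the highest per length. Their sums averaged 850, 805, 678 and 683 CPM in the same order. Of 5 leukocyte markers 2 passed the filter, and the sums averaged 3.44, 3.27, 7.77 and 1.69 CPM with ITGAM the highest. CD3E had 12 counts in 1 untreated library and at most 1 elsewhere. Of 4 endothelial markers VWF alone passed, PECAM1 was not matched, and the sums averaged 1.23, 1.5, 2.11 and 0.998 CPM. Of the osteoblast markers RUNX2 (−0.56, SE 0.171) was called lower at 1.5 h, a call lost without untreated replicate 5 (−0.26), without 1.5 h replicate 1 (−0.51) or 4 (−0.55), and when only the groups compared were fitted (−0.55). At 7 days SPP1 (2.64, SE 0.114) and ALPL (0.77, SE 0.182) were called higher, and with the knockdown ALPL (−1.96, SE 0.201) and COL1A1 lower. With lane as a factor ALPL turned to −0.11 at 7 days. That setting also called lower RUNX2 (−0.91) and COL1A1 (−0.76) at 7 days, ALPL (−1.15), COL1A1 (−0.50), SPP1 (−0.57) and PTPRC (−0.90) at 1.5 h, and RUNX2 (−1.04) and SPP1 (−0.73) with the knockdown, and it called VWF higher at 1.5 h (1.66) and at 7 days (1.56). Of the epithelial markers KRT5, KRT19 and TP63 passed the filter through the groups where they are high, and are not counted. KRT5 was over the cutoff in untreated and 1.5 h libraries only, KRT19 at 7 days only, and TP63 in some 7 days and knockdown libraries. Of the 5 over the cutoff in most libraries of every group 4 were called lower at 7 days (14.4% of all genes) and 3 with the knockdown (7.53% of all genes). KRT19 and TP63 went the other way at 7 days, while KRT5 was lower there. Lane as a factor ended the calls of EPCAM (−0.73) and KRT8 (−0.24) at 7 days and of KRT8 (−0.26) with the knockdown. ITGAM rose at 7 days (1.48, SE 0.142), and both leukocyte markers tested were called lower with the knockdown (7.53% of all genes). For ITGAM (−0.76, SE 0.169) the call was lost with lane as a factor, at −1.07. The part of these levels in the values of CXCL14 was not tested.

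CXCL14 counts were 2216, 1837, 1973, 1539 and 1845 in untreated replicates 1 to 5, which is 65.8, 50.8, 49.4, 50.7 and 87.8 CPM. Replicate 5 was the highest. The mean was 60.9 ± 16.5 CPM (SD, n = 5), or 54.2 ± 7.78 CPM (n = 4) without replicate 5. Per kilobase of gene model this was 30.9 CPM per kb, and CXCL14 took place 1720 among the 14992 genes ordered by level per length. At 1.5 h post-IR the counts were 1736, 1584, 1677, 1499 and 2076, or 44.1, 45.7, 47.2, 43.9 and 58.8 CPM (mean 47.9 ± 6.22, n = 5). Replicate 5 was again the highest, and it alone reached into the untreated range.

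With the NFKBIA knockdown CXCL14 had 512, 371, 398, 348 and 339 counts, or 15.1, 11.3, 11.9, 12.8 and 12.0 CPM (mean 12.6 ± 1.48, n = 5). All 5 values lay below every untreated and every 1.5 h library. At 7 days post-IR 30, 31, 22, 27 and 23 counts were left, or 0.878, 1.02, 0.634, 0.822 and 0.824 CPM (mean 0.835 ± 0.138, n = 5). These counts carry exact 95% Poisson intervals from 13.8 to 33.3 counts for the lowest library up to 21.1 to 44 for the highest, which cover counting error only, so the libraries at 7 days cannot be told apart at this depth. Reads were thus still counted on CXCL14 in every library, at place 13234 of 14992 per length. The strand setting of the counting is not given, so some could come from genes that overlap it on the other strand.

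**Figure D1:**
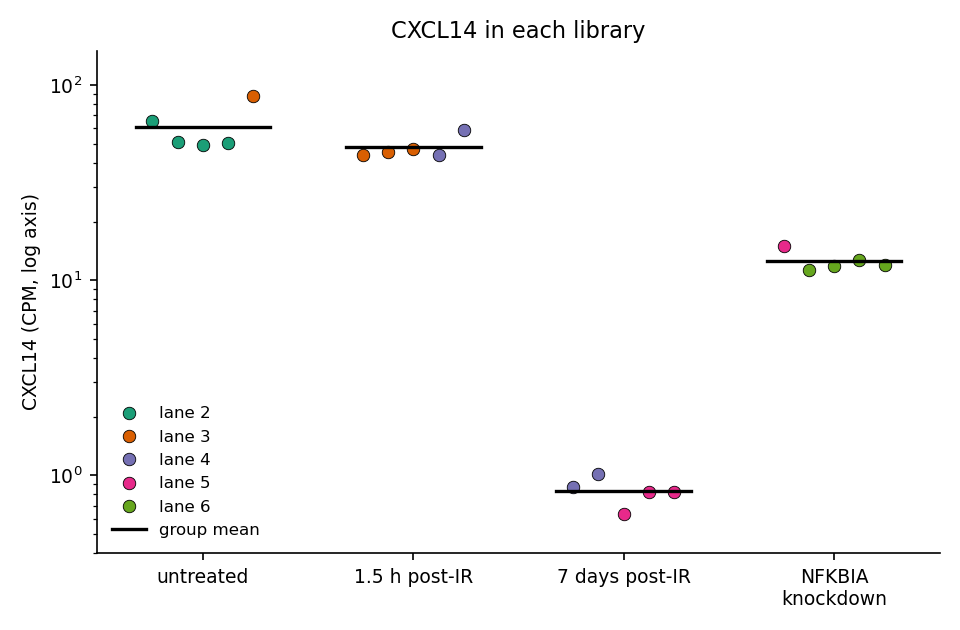
CXCL14 in each of the 20 libraries (points, CPM on a log axis, coloured by lane) with the group means (lines). The 7 days libraries lie at 0.634 to 1.02 CPM, the knockdowns at 11.3 to 15.1, and the untreated and 1.5 h libraries between 43.9 and 87.8.

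The order of the levels was untreated, 1.5 h, knockdown and 7 days, at 100, 78.7, 20.7 and 1.37% of the untreated mean. The untreated libraries stand in the contrast that chose the gene, so values against them are given as a description and without a test. At 1.5 h CXCL14 was at −0.34 against untreated (log2 fold change, SE 0.129), and 4 of 5 libraries lay below every untreated one. The value depended on untreated replicate 5, the highest untreated library, and was −0.18 when it was left out and −0.94 with lane as a factor, a fit that rests on that library. Within lane 3, where that same library is the only untreated one, the value was −0.94 (45.6 CPM in 3 libraries against 87.8 in 1).

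In cells that had not been irradiated the knockdown libraries were lower. CXCL14 was at −2.27 against untreated cells (log2, SE 0.14), with a mean 4.83 times lower, in 5 of 5 libraries, which is again a description. The test is the knockdown against 1.5 h, which shares no library with the contrast that chose the gene. The 1.5 h cells were irradiated and the knockdown cells were not, so the groups tested differ in irradiation too. CXCL14 fell by 1.93 there (SE 0.139, 95% confidence interval −2.22 to −1.64, edgeR quasi-likelihood with Benjamini-Hochberg adjusted p = 6.25e-10, range over the alternatives 3.31e-36 to 0.0134). The exact permutation test, two-sided, gave p = 0.00794 (n = 5 and 5), the smallest it can give. The edgeR fit took its spread from all 20 libraries, with those that chose the gene among them. With only the groups compared CXCL14 was at −1.93 (SE 0.0882, edgeR quasi-likelihood with Benjamini-Hochberg adjusted p = 5.13e-11). Among all genes 7.6% were called lower in this comparison, where a call needs an adjusted p under 0.05 and a log2 fold change over 0.5 in size. With lane as a factor, the fit with the highest p of that range, the values were −2.39 against untreated and −1.45 against 1.5 h. No lane holds knockdown beside 1.5 h libraries, so the latter value runs through the 7 days libraries, which had a part in choosing the gene. It also rests on knockdown replicate 1, and is a description and not a further test. In bulk samples, fewer cells that express CXCL14 and less CXCL14 RNA per cell cannot be told apart.

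At 7 days the fitted log2 fold change was −6.18 against untreated (SE 0.192), −5.84 against 1.5 h (SE 0.192) and −3.92 against the knockdown (SE 0.199). The mean was 72.9 times below the untreated mean. Within lane 4 the 7 days libraries averaged 0.948 CPM against 51.4 CPM at 1.5 h (n = 2 and 2), and within lane 5 they averaged 0.760 CPM (n = 3) against 15.1 CPM in 1 knockdown library. The next largest falls among the genes tested were those of FOXS1, a forkhead transcription factor (−5.05, SE 0.33), MYL4, an atrial myosin light chain (−4.80, SE 0.223), MYOCD, the smooth muscle coactivator myocardin (−4.14, SE 0.451), SERPINF1, the secreted factor PEDF (−4.07, SE 0.346), and KIAA1210 (−4.05, SE 0.29). These genes too were chosen by their fall from the untreated libraries, so the knockdown was read against 1.5 h, and they did not all move as CXCL14 did. MYL4 (−1.04, SE 0.151) and KIAA1210 (−1.76, SE 0.234) were called lower, SERPINF1 higher (1.33, SE 0.198), and FOXS1 was not called (−0.45, SE 0.217). The calls of MYL4, KIAA1210 and SERPINF1 were lost with lane as a factor, at −0.42, −1.07 and 1.69. MYOCD had 3 to 11 counts with the knockdown and 19 to 48 at 1.5 h. It passed the filter through the groups where it is high, so its value (−1.80) is not counted as a call.

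CXCL14 lies on chromosome 5 on the minus strand, and its 5′ end faces SLC25A48, a gene of the mitochondrial carrier family on the other strand. In GENCODE 29 (GRCh38) the gene models share 78 bases at their 5′ ends, and in RefSeq the nearest annotated starts are 180 bases apart. A further antisense gene, AC034206.1, shares 8601 bases with CXCL14 and has no row matched in the count table. The libraries were made with a stranded kit, but the strand setting of the counting is not given in the sources used here, so the counts of overlapping genes are uncertain.

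Since both genes start within this short stretch, the window of 250 bases before to 50 bases from the RefSeq start of CXCL14 was searched on both strands (GRCh38.p14, chr5:135578942-135579241, minus strand). Its GC content was 64.4%, where the median of all 35116 such windows was 58%. It held 1 match to the AP-1 motif TGANTCA, 92 to 86 bases before the start, which 6.57% of all windows hold. TTTAAA occurred 1 time, 33 to 28 bases before the start (11.3% of windows), and the GC box GGGCGG 4 times, of which the pair nearest the start overlap each other, while 42.6% of windows hold at least 1. TATAAA (10.7% of windows) and the NF-κB consensus (9.96%) had no match, which says only that these letters are not in this window. The match to AP-1 and the match to TTTAAA are shown with the bases around them, from RefSeq, 5′ to 3′ on the minus strand, with the motif in capitals. A longer CXCL14 transcript in GENCODE 29 includes both stretches in its 5′ UTR, and a match is a description of the sequence.
AP-1 motif, chr5:135579065-135579094: agaaatctcagTGAGTCAccgagtggttct
TTTAAA, chr5:135579007-135579036: ggcaggagcggaTTTAAAagaggccagggc

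SLC25A48 (ENSG00000145832), across that stretch, was low and followed CXCL14 in direction. It had 62, 56, 71, 48 and 43 counts in untreated replicates 1 to 5 (1.76 ± 0.203 CPM) and 69, 64, 51, 48 and 72 at 1.5 h (1.70 ± 0.272 CPM). At 7 days 14, 4, 4, 11 and 10 counts were left (0.270 ± 0.137 CPM), and with the knockdown 21, 28, 23, 13 and 14 (0.625 ± 0.152 CPM). All 7 days and knockdown libraries lay below all untreated and 1.5 h libraries in CPM. SLC25A48 fell by 2.68 at 7 days (SE 0.232, edgeR quasi-likelihood with Benjamini-Hochberg adjusted p = 2.26e-09), and was called lower with the knockdown, at −1.46 against untreated (SE 0.198) and −1.42 against 1.5 h (SE 0.196). At 1.5 h it was at −0.04 (SE 0.167). With lane as a factor the knockdown values were −1.68 and −1.40 and did not pass. Within lane 4 SLC25A48 averaged 0.270 CPM at 7 days against 1.72 at 1.5 h, and within lane 5 it averaged 0.269 CPM at 7 days against 0.618 in the knockdown library.

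The counts of both genes were not in a fixed ratio. Summed over a group, SLC25A48 had 2.98 counts per 100 CXCL14 counts in untreated cells, 3.55 at 1.5 h, 5.03 with the knockdown (3.74 to 7.55 over libraries) and 32.3 at 7 days (12.9 to 46.7). Across all 20 libraries the log2 CPM of both genes had a Pearson r of 0.931, and across the 15 without 7 days 0.945. The libraries share groups, lanes and depth, and reads from the 78 shared bases could count for either gene.

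**Figure D2:**
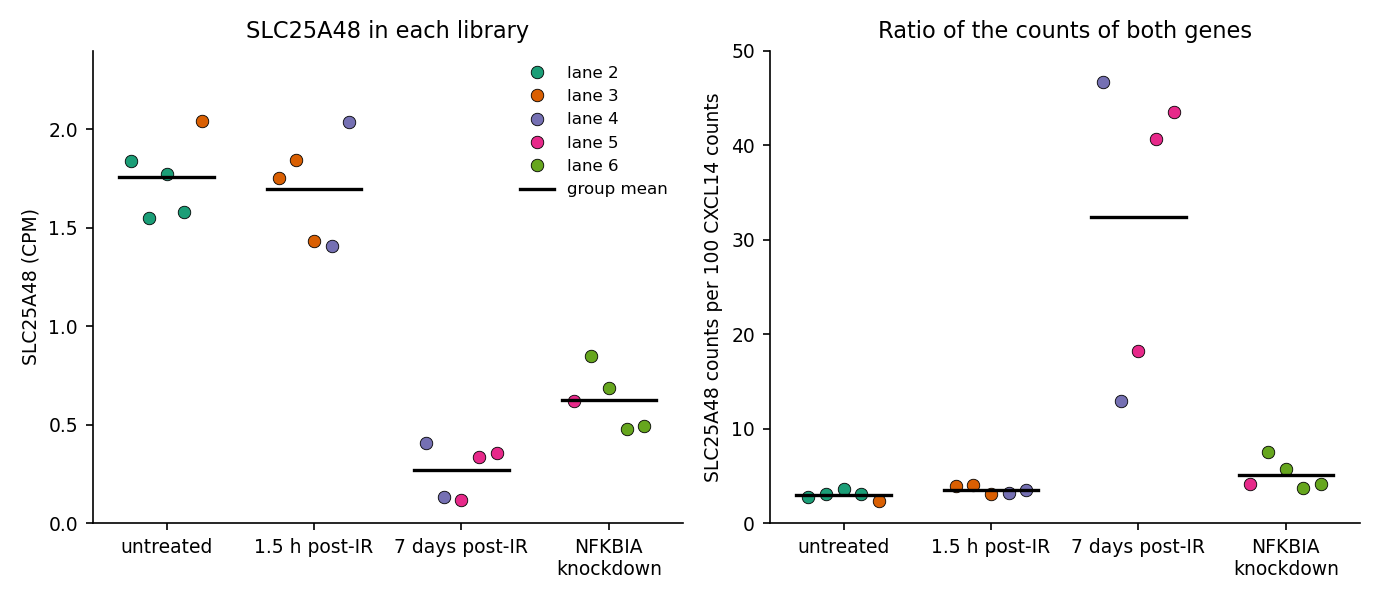
Left, SLC25A48 in each library in CPM. Right, SLC25A48 counts per 100 CXCL14 counts, which lie at 2.33 to 4.04 in untreated and 1.5 h libraries and at 12.9 to 46.7 at 7 days; points are libraries coloured by lane, lines are group means.

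No neighbour could fall further than CXCL14 at 7 days, since CXCL14 was chosen as the largest fall. The other neighbours tested moved less than SLC25A48 there, and in both directions. Of the 10 named protein-coding genes on each side, 13 of 20 were tested and SMIM32 was not matched. At 7 days 3 of 13 were higher (16.7% of all genes were) and 3 lower (14.4% of all genes), with a median log2 fold change of −0.0319 against 0.0122 over all genes. These counts are near those shares. The higher ones were SPOCK1, a matrix proteoglycan (1.35, SE 0.121), TGFBI, a secreted matrix protein (0.55, SE 0.125), and KLHL3 (0.60, SE 0.148), and the lower ones PITX1, a homeobox factor (−0.69, SE 0.096), HNRNPA0 (−0.66, SE 0.131) and SLC25A48. TGFBI lost its call with lane as a factor (0.64), without untreated replicate 2 (0.44) and without 7 days replicate 1 (0.49), KLHL3 lost it without untreated replicate 4 (0.48) or 5 (0.47), and HNRNPA0 turned to 0.26 with lane as a factor, a setting that also called DDX46 lower (−0.61) and TXNDC15 higher (0.67). PITX1 was below 0 in the other comparisons too, at −0.22 at 1.5 h and with the knockdown at −0.47 against untreated and −0.24 against 1.5 h, and was not called there. In the fit of all groups 1 of 13 was called lower with the knockdown against untreated (7.53% of all genes) and 1 higher (5.18%). Both counts are near those shares. The lower one was SLC25A48, and the higher one was CATSPER3, a sperm calcium channel gene (0.52, SE 0.163). That call was lost without untreated replicate 2 (0.47), untreated replicate 5 (0.40) or knockdown replicate 1 (0.42), and when only the groups compared were fitted (0.53). Other settings called TGFBI lower (−0.57 without untreated replicate 2, −0.52 without knockdown replicate 1), PITX1 lower (−0.52 without knockdown replicate 2), KLHL3 higher (0.55 without untreated replicate 2) and C5orf24 higher (0.53 by library size alone, 0.52 without untreated replicate 2). Lane as a factor ended the call of SLC25A48 and called SPOCK1 lower (−0.65) and TXNDC15 (0.66) and HNRNPA0 (1.16) higher. Against 1.5 h SLC25A48 was again the only one called, 1 of 13 lower (7.6% of all genes) and 0 higher (6.54%), near those shares. There CATSPER3 (0.50, SE 0.16) was called by library size alone (0.53) and in several fits without 1 library. The neighbours not tested (DCANP1, TIFAB, NEUROG1, IL9, LECT2 and TRPC7) had at most 2 counts in any library. At 1.5 h 0 of 13 were called by edgeR and 0 by DESeq2, where edgeR called 2.08% of all genes higher and 1.57% lower. In edgeR 3 had an unadjusted p under 0.05, while lane as a factor called HNRNPA0 (1.11), CATSPER3 (0.83) and KLHL3 (0.78) higher and SPOCK1 (−0.59) lower.

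**Figure D3:**
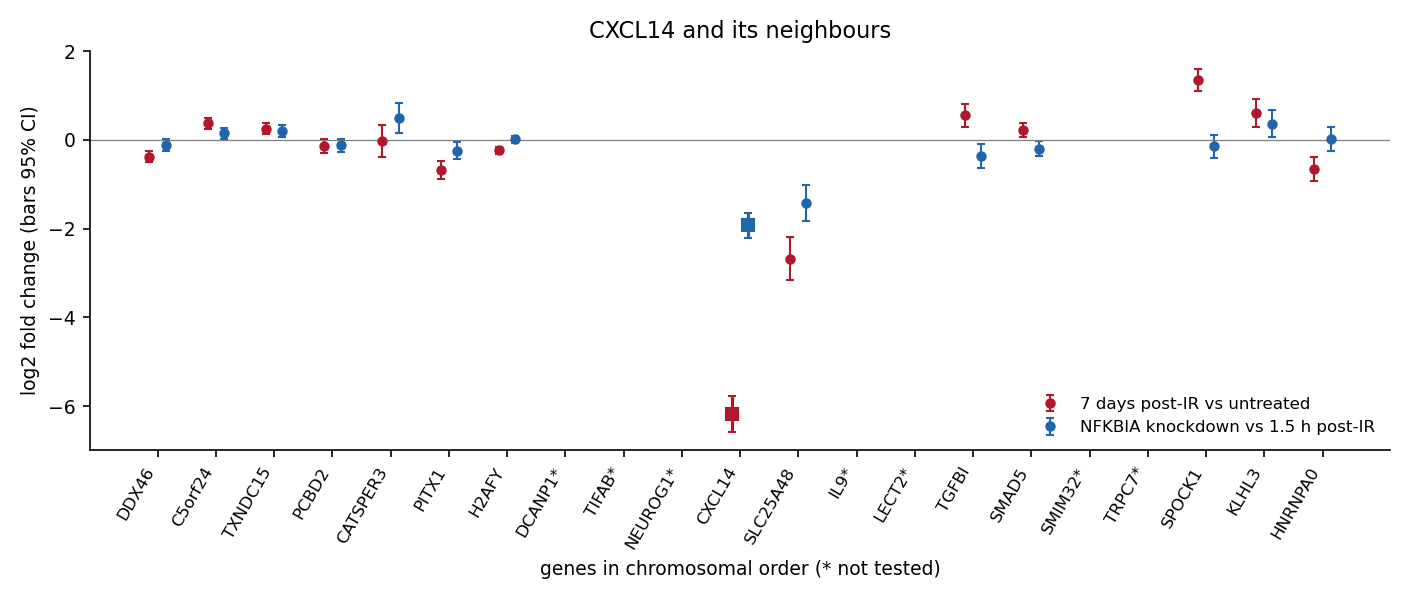
Log2 fold changes (points, bars 95% confidence intervals) of CXCL14 (squares) and its neighbours in chromosomal order, at 7 days against untreated and in the knockdown against 1.5 h. CXCL14 lies at −6.18 and −1.93, SLC25A48 at −2.68 and −1.42, and the other neighbours tested between −0.69 and 1.35.

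Among the CXC chemokine genes CXCL14 was the most abundant per length in untreated cells, and at 7 days CXCL8 took that place. CXCL14 made up 80.2 ± 2.32% of the summed CPM per kb of 17 CXC genes in untreated cells, 66.3 ± 1.79% at 1.5 h, 44.8 ± 3.66% with the knockdown and 1.35 ± 0.374% at 7 days (SD, n = 5). CXCL8, the neutrophil attractant interleukin-8 and an NF-κB target, made up 5.34, 19.6, 20.9 and 76.2% in the same order. CXCL16, a transmembrane chemokine, made up 12.6, 11.2, 27.4 and 14.0%. The summed level of all 17 genes was 38.3 ± 9.12 CPM per kb in untreated cells, 36.6 ± 4 at 1.5 h, 32.2 ± 3.88 at 7 days and 14.3 ± 0.909 with the knockdown. Without CXCL14 the sums were 7.42, 12.3, 31.8 and 7.87 CPM per kb.

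**Figure D4:**
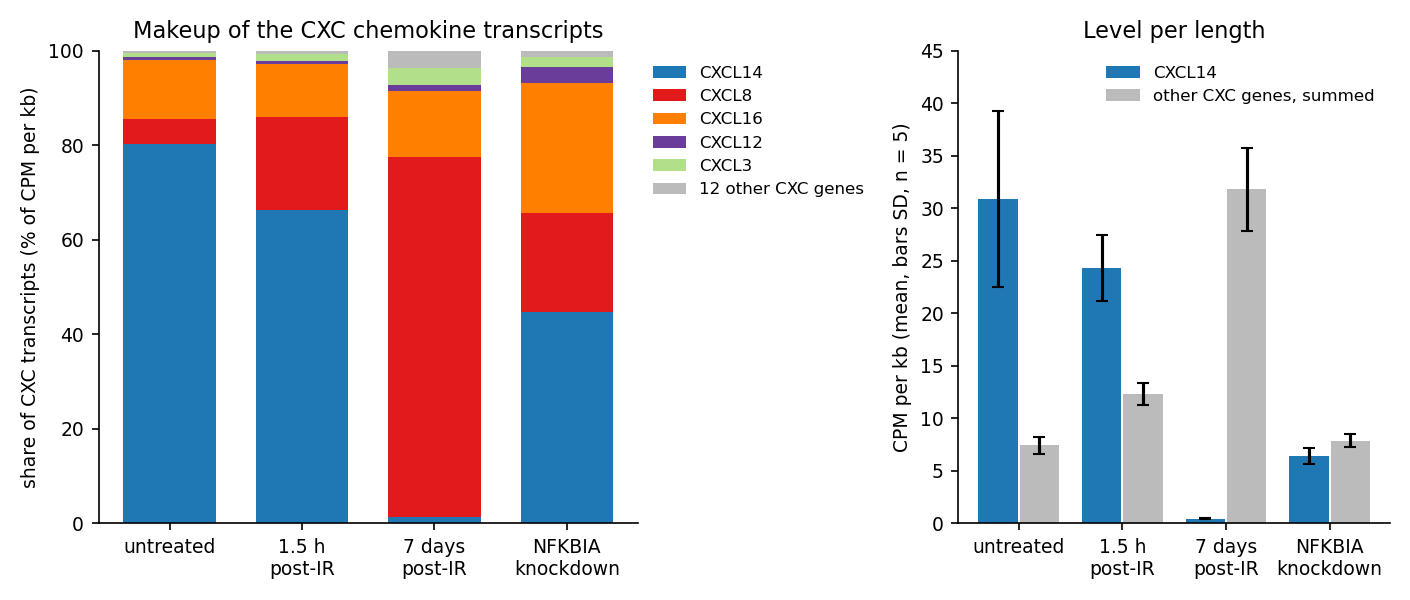
Left, mean share of each CXC chemokine gene in the summed CPM per kb of 17 genes, by group. Right, level of CXCL14 beside the sum of the others (bars, mean with SD, n = 5): 30.9 and 7.42 CPM per kb in untreated cells, 0.424 and 31.8 at 7 days.

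Of the 16 other CXC genes 4 passed the filter. At 1.5 h 2 of 4 rose (2.08% of all genes did) and none fell (1.57% of all genes did). At 7 days 3 rose (16.7% of all genes), and with the knockdown 2 rose against untreated cells (5.18% of all genes). Against 1.5 h the knockdown had 1 higher (6.54% of all genes) and 2 lower (7.6% of all genes), of which CXCL3 lost its call with lane as a factor (−1.12). The medians over the 4 genes were 0.649, 1.5, 0.381 and −0.494, where those over all genes were −0.0258, 0.0122, −0.00804 and 0.00399. CXCL8 stood at 4.39 ± 1.13 CPM in untreated cells, 16.3 ± 1.80 at 1.5 h, 55.9 ± 8.45 at 7 days and 6.77 ± 0.919 with the knockdown. It rose by 1.87 (SE 0.143), 3.65 (SE 0.144) and 0.60 (SE 0.15) on the log2 scale. The last of these calls was lost without untreated replicate 5 (0.48) and with lane as a factor (0.74). CXCL8 and CXCL14 thus moved apart at 7 days, within lane 4 too, where CXCL8 averaged 48.3 CPM at 7 days and 17.7 CPM at 1.5 h.

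CXCL12, the ligand of CXCR4, rose at 7 days by 0.91 (SE 0.156) and with the knockdown by 1.23 against untreated (SE 0.153), from 1.32 ± 0.417 CPM to 2.55 ± 0.245 and 3.20 ± 0.369 CPM. At 1.5 h it was called only with lane as a factor (1.37). CXCL3, a neutrophil attractant like CXCL8, rose at 1.5 h by 1.08 (SE 0.212) and at 7 days by 2.08 (SE 0.196), and the 1.5 h call was lost with lane as a factor (0.87). Its close copies CXCL1 and CXCL2 had 0 to 3 counts in every library, and how reads were divided among these copies is not given in the sources used here, so its level is uncertain. CXCL16 was at −0.24, −0.11 and −0.30 in the 3 comparisons with untreated cells and not called, but with lane as a factor it was called lower in each (−0.83, −0.80 and −1.0). The 12 genes that did not pass the filter had at most 20 counts in any library.

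Of 12 chemokine receptor genes 6 were tested. CXCR4, a proposed partner of CXCL14, had 0 to 3 counts in every library. GPR85, an orphan receptor proposed for CXCL14, stood at 0.952 ± 0.253 CPM in untreated cells, 1.16 ± 0.136 at 1.5 h, 1.89 ± 0.355 at 7 days and 0.504 ± 0.127 with the knockdown. It rose by 0.96 at 7 days (SE 0.171) and fell by 0.92 with the knockdown (SE 0.212), against the direction of CXCL14 at 7 days and along with it in the knockdown. Both calls were lost with lane as a factor (1.19 and −0.57). CXCR2 and ACKR2 were under the cutoff of the filter in most libraries of some groups and are not counted. Of the other 4 genes 2 rose and 2 fell at 7 days (16.7% and 14.4% of all genes). With the knockdown 1 rose and 2 fell, against untreated (5.18% and 7.53% of all genes) as against 1.5 h (6.54% and 7.6%), and the 3 calls against 1.5 h were lost with lane as a factor, where CCRL2 was at 1.11 (1.08 without it), GPR85 at −1.24 (−1.18) and ACKR3 at −0.58 (−1.09). ACKR3, a scavenger receptor of CXCL12, fell by 1.62 at 7 days (SE 0.165) and by 1.03 with the knockdown (SE 0.157), the latter lost with lane as a factor (−0.95). CXCR2, a receptor of CXCL8, had 0 to 6 counts in untreated libraries and 28 to 33 at 7 days, and it passed the filter through its 7 days libraries only, so no fold change is given. CCRL2, a chemerin-binding receptor, rose by 2.54 at 7 days (SE 0.191). Its knockdown call (0.74) was lost without knockdown replicate 1 (0.59) and with lane as a factor (0.27). At 1.5 h 0 of 6 were called by edgeR (2.08% of all genes were called higher and 1.57% lower) and 0 by DESeq2, with 1 at an unadjusted p under 0.05 in edgeR. ACKR1 was called lower there (−1.02), and with the knockdown against untreated (−1.22), only with lane as a factor.

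The EGF family was read because its signalling has been tied to CXCL14 levels. Of 11 genes 9 were tested, and 2 rose at 1.5 h (2.08% of all genes), the ligands HBEGF (0.94, SE 0.0692) and TGFA (0.70, SE 0.0861). EREG was called higher there without untreated replicate 2 (0.58), and EGFR lower with lane as a factor (−0.78). ERBB4 passed the filter through its 7 days and knockdown libraries and is not counted. Of the other 8 genes 4 rose and 1 fell at 7 days (16.7% and 14.4% of all genes). EREG rose by 1.5 (SE 0.15), TGFA by 0.75 (SE 0.0863), and the receptor gene EGFR by 0.76 (SE 0.117), while ERBB3 fell by 2.08 (SE 0.212). The calls of EGFR (0.17) and BTC (0.92) at 7 days were lost with lane as a factor. With the knockdown 1 of 8 rose and 1 fell (5.18% and 7.53% of all genes), namely EREG (1.45, SE 0.15) and HBEGF (−0.76, SE 0.0714), and with lane as a factor these calls were lost (0.90 and −0.54) and EGF was called higher (1.03).

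Of 9 genes for DNA methylation enzymes and readers 8 were tested and UHRF1 was not matched. At 7 days 5 of 8 fell (14.4% of all genes), with a median of −0.597 (0.0122 over all genes). DNMT1, the maintenance methyltransferase, fell by 0.88 (SE 0.0755) from 247 ± 41.8 to 134 ± 4.14 CPM, and DNMT3B, a de novo methyltransferase, by 0.79 (SE 0.0863). TET1, which oxidises 5-methylcytosine, fell by 1.74 (SE 0.172), TET3 by 0.65 (SE 0.128) and MBD2 by 0.54 (SE 0.0923), the last lost without untreated replicate 5 (−0.46) and when libraries were scaled by their size alone (−0.49). The writer DNMT3A (−0.14) and the eraser TET2 (−0.37) were not called, though TET2 was without untreated replicate 4 (−0.56) and with lane as a factor (−1.24). With the knockdown TET1 fell by 0.59 (SE 0.162), the only call in the fit of all groups (7.53% of all genes were called lower), and that call was lost without untreated replicate 5 (−0.41). Lane as a factor also called DNMT1 (−0.78), DNMT3B (−0.81) and TET2 (−1.29) lower there. Methylation itself was not measured. At 1.5 h 0 of 8 were called by edgeR, where 2.08% of all genes were called higher and 1.57% lower. DESeq2 called 0, and 0 had an unadjusted p under 0.05 in edgeR, while lane as a factor called TET1 (−0.65) and TET2 (−0.90) lower.

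The genes most like CXCL14 depended on whether the 7 days libraries were counted. Likeness was the Pearson r of log2 CPM among genes whose group means ranged over at least 1 on the log2 scale. Over all 20 libraries (2488 genes compared) the 8 most alike were OLFML2A (r 0.994), NUSAP1, EZH2, OLFML3, LDLRAD4, FXYD6, OSBPL10 and SPAG5 (r 0.989). NUSAP1 and SPAG5 are mitotic spindle genes, EZH2 is the methyltransferase of Polycomb complexes, and OLFML2A and OLFML3 are secreted olfactomedin-like proteins. Their log2 fold changes at 7 days were smaller, from −3.19 (OLFML2A, SE 0.128) to −1.04 (SPAG5, SE 0.0453). With the knockdown against untreated they ranged from −1.06 (OLFML2A, SE 0.108) to −0.34 (EZH2, SE 0.0426). The genes were chosen by likeness over these same libraries, so these values describe the choice and are given without a test.

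Over the 15 libraries without 7 days (722 genes compared) the 8 most alike were HTR2A (r 0.988), COL1A1, HAPLN1, L1CAM, THBS1, CCDC67, KRT14 and DHRS2 (r 0.979). The knockdown libraries had a part in this choice, and the knockdown values against untreated, from −3.97 (CCDC67, SE 0.299) to −1.19 (HAPLN1, SE 0.0762), are a description only. The 7 days libraries had none, although the untreated ones are shared. The 8 also came from the 722 genes compared, so the share over all genes given next is not a matched one. At 7 days 5 of the 8 were called lower (14.4% of all genes) and 7 had a negative value, from −2.77 for the serotonin receptor gene HTR2A (SE 0.223) to 0.43 for DHRS2 (SE 0.0871), which was not called. COL1A1 (−0.43) and THBS1 (−0.44) were called only with lane as a factor (−0.76 and −0.66), and THBS1 also without untreated replicate 4 (−0.54). The sets shared 0 genes. The libraries of a group are points of 1 condition here, and r is given without a p.

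**Figure D5:**
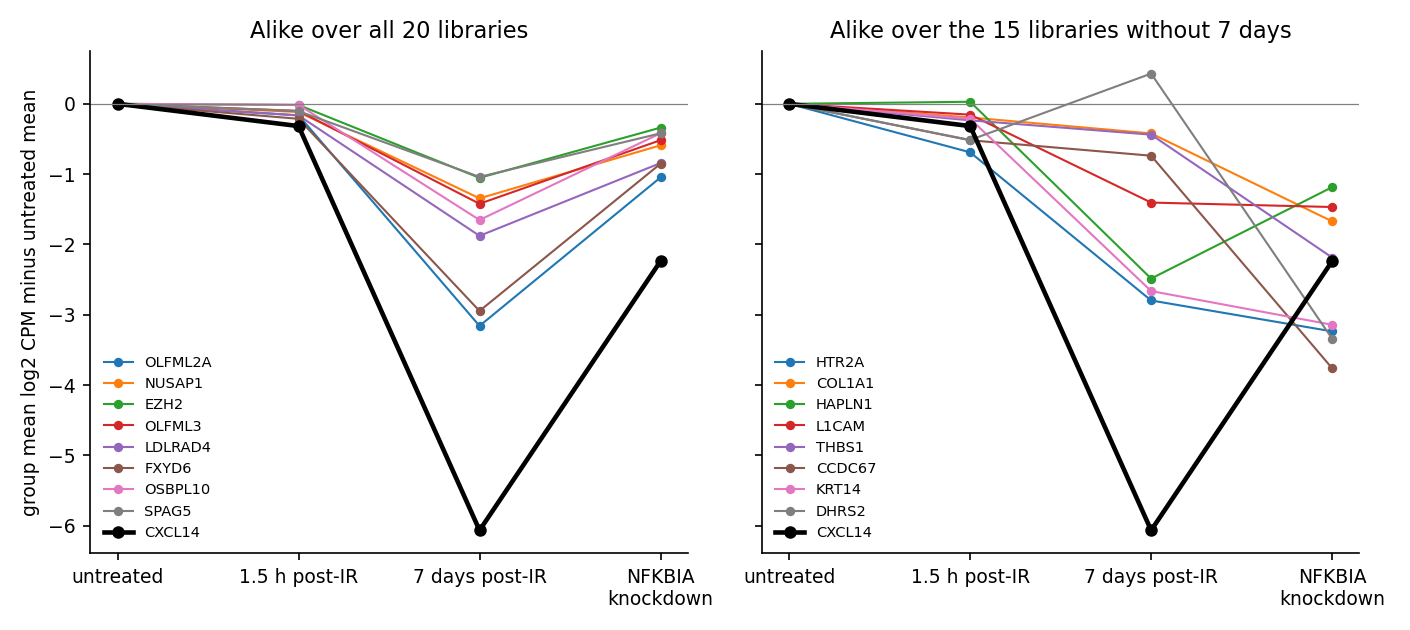
Group mean log2 CPM (prior count 2) minus the untreated mean for CXCL14 (black) and the 8 genes most like it, over all 20 libraries (left) and over the 15 without 7 days (right). OLFML2A lies nearest to CXCL14 by r (0.994) on the left, and on the right DHRS2 lies above its untreated level at 7 days.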

How the data were processed

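The authors deposited a table of raw read counts per gene with gene symbols and gene widths, made from single-end reads of stranded mRNA libraries. The submitters' processing notes name bcl2fastq, Trimmomatic, STAR 2.4.2a and hg19. The counting tool, its annotation and its strand setting are not given in the sources used here. Samples were grouped by their labels into 4 groups of 5 libraries, and 22535659 to 40390961 reads were counted per library, which sets the counting error of a low gene. All 20 libraries were fitted together in R 4.3.3 with edgeR 4.0.16 and limma 3.58.1 (TMM scaling, filterByExpr with a minimum count of 10, quasi-likelihood test, Benjamini-Hochberg over 14992 genes), without covariates. A gene was called at an adjusted p under 0.05 and a log2 fold change over 0.5 in size. SE is the fold change divided by the root of F, and levels are CPM on TMM-scaled library sizes. CXCL14 was tested only in the knockdown against 1.5 h, also by exact permutation of log2 CPM (prior count 2). List counts at 7 days and with the knockdown leave out members over the cutoff of the filter in fewer than 3 libraries of any group, a rule chosen after seeing the data. The scripts were tested on simulated counts. Of the rows, 1679 have no symbol in the table and were named by Ensembl ID where a reference name existed.

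Named were NFKBIA and CDKN1A as checks, genes overlapping CXCL14 and the 10 nearest on each side, the other CXC chemokines, receptors, the EGF family, DNA methylation enzymes, cell type markers, the 5 next largest falls and the 8 genes most like CXCL14 in each of 2 sets of libraries. Members and lists were chosen with earlier results of these data known. Alternatives were RLE scaling, library size alone, DESeq2 1.42.0, no filter, only the groups compared, a replicate block, lane as a factor, values within lanes and leaving out each library. Lists without untreated replicate 5 were added after seeing the data. Order of genes came from GENCODE 29 and the promoter window from RefSeq (GRCh38.p14), while the counts were made on hg19, so no coordinates were carried between builds.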

Additional observations from a re-analysis of the deposited data

Results flagged for a closer look

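CXCL14 in 1.5 h replicate 5, at 58.8 CPM, stood apart from the other libraries of its group, of which the nearest was at 47.2 CPM (gap 0.782 of the group's range, where Dixon's critical value is 0.71). The reads counted on genes in 1.5 h replicate 1, 39.55 M, were far from the nearest library of that group at 35.64 M (0.751 of the range). Of 24 groups of 5 values looked at 2 stood out, and chance gives about 1 in 20. Without 1.5 h replicate 5 CXCL14 was at −0.42 against untreated cells.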

How the results depend on the processing

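With the knockdown CXCL14 was lower under every alternative run, from −2.39 to −2.20 against untreated cells. Against 1.5 h it was at −1.94 to −1.89 in the settings other than lane as a factor, and passed the test each time. The value with lane as a factor, −1.45, runs through the 7 days libraries, which had a part in choosing the gene, and is a description. Leaving out each library gave −2.35 to −2.12 for the knockdown against untreated and −2.01 to −1.84 against 1.5 h. It gave −0.42 to −0.18 at 1.5 h, −6.28 to −6.04 for 7 days against untreated, −5.94 to −5.76 against 1.5 h and −4.01 to −3.84 against the knockdown. With lane as a factor CXCL14 was at −0.94 at 1.5 h, −6.70 at 7 days against untreated and −4.31 against the knockdown. Within lane 3 it was at −0.94 at 1.5 h, and within lane 5 at −4.21 for 7 days against the knockdown. No lane holds knockdown libraries beside untreated or 1.5 h ones, or 7 days beside untreated ones, so no value within a lane exists there. With lane as a factor 7 days against untreated rests on untreated replicate 5 and runs through the 1.5 h libraries. Knockdown against 1.5 h rests on knockdown replicate 1 and runs through the 7 days libraries. Knockdown against untreated rests on both of these replicates and runs through the 1.5 h and 7 days libraries.

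With lane as a factor 3820 genes were called at 1.5 h (548 without it), 4088 with the knockdown against untreated (1906) and 1186 against 1.5 h (2121), and at 7 days ALPL turned to −0.11 and HNRNPA0 to 0.26. With lane as a factor the 1.5 h values against untreated rest on untreated replicate 5, the only untreated library in a lane with 1.5 h ones. The cause of these changes was not tested. Over the 78 named genes and 4 comparisons that setting ended 40 calls, added 40 and turned the sign of 2 among 312 values. RLE scaling and no filter changed none of 312, the replicate block and DESeq2 added 1 each, library size alone ended 3 and added 3, and only the groups compared ended 5 and added 1 of 296. Leaving out each library ended 32 and added 31 of 3120. Leaving out each library gave 460 to 689 genes called at 1.5 h, 4608 to 4888 at 7 days, 1798 to 2146 with the knockdown against untreated and 2055 to 2173 against 1.5 h. By library size alone 51.2% of the genes called with the knockdown against untreated were higher (40.8% by TMM), and at 1.5 h with only the groups compared 75.3% (56.9% in the fit of all groups).

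Replicate numbers showed no pairing of the libraries on average: deviations of same-numbered libraries correlated at a mean of −0.00446 over 30 pairs (−0.254 to 0.123). With the replicate block CXCL14 was at −0.32 at 1.5 h (SE 0.103), −2.24 and −1.92 with the knockdown (SE 0.111 for both) and −6.16 at 7 days (SE 0.153). Each SE was smaller than without the block (0.129, 0.14, 0.139 and 0.192). The block gave 496, 4628, 1849 and 2094 genes called at 1.5 h, at 7 days and with the knockdown against untreated and 1.5 h. Lists counted without untreated replicate 5, an alternative chosen after seeing the data, lost 1 call each for osteoblast markers at 1.5 h, for methylation genes and neighbours at 7 days, and for CXC chemokines, methylation genes and neighbours with the knockdown. They gained VWF with the knockdown and PTPRC (0.54) at 7 days. A leukocyte marker that passed the filter only in that setting is not counted. Depth limits CXCL14 most at 7 days, where 22 to 31 counts were left.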
